A study of Homo sapiens with 136 samples.

Results

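MYC and 39 factors of ribosome biogenesis were followed in the pancreatic ductal adenocarcinoma lines AsPC-1 and PANC-1, with 68 RNA libraries of each. The 40 members were taken by gene symbol from the deposited count table, which lists 25435 genes, and all 40 were found in it. All 40 passed the filter on low counts in both lines, so none was lost before testing.

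MYC is a transcription factor that binds E-box sequences as a dimer with MAX and drives cell growth. Among its best known targets are the genes for making ribosomes: RNA polymerase I transcribes the ribosomal RNA precursor, small nucleolar ribonucleoproteins (snoRNPs) modify it, and separate sets of nucleolar factors fold, cut and export the small and the large subunit. The kinase ERK, which RAF and MEK activate, acts on MYC at the level of its transcription and of the stability of its protein.

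Both lines were measured by PLATE-Seq, a multi-well method that prepares barcoded RNA libraries from cells lysed in their plates. After 24 h of growth the cells received, for another 24 h, an autophagy inhibitor by itself or with 1 of 14 inhibitors of RAF, MEK or ERK. The autophagy inhibitor was hydroxychloroquine, which blocks the breakdown of autophagic cargo in the lysosome, or Compound 19, which acts on the phosphatidylinositol kinase Vps34 at the start of autophagosome formation. Each line has 6 libraries of either autophagy inhibitor alone and 2 libraries of each combination, 1 on each of 2 plates.

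The MEK inhibitors were binimetinib, cobimetinib, refametinib, selumetinib and trametinib, with 20 libraries per line. The ERK inhibitors were AZD0364, SCH772984, ravoxertinib and ulixertinib, with 16 libraries per line. The RAF inhibitors were GDC-0879, PLX8394, RAF709, dabrafenib and sorafenib, with 20 libraries per line. All groups, controls included, received an autophagy inhibitor, and no untreated cells or single kinase inhibitor were measured. Each drug was used at the concentration that left 80% of the cells viable after 48 h of that drug alone. Concentrations are not given in the labels, so drugs and lines are compared at doses set by viability, and dose and line cannot be told apart. "Alone" below means the 12 libraries per line that received only an autophagy inhibitor, and all drugs of a line share them as controls.

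Library totals ran from 1419228 to 5172291 counts in AsPC-1 and from 1668713 to 5871860 in PANC-1. Markers of cell types were looked at in both lines. All 7 epithelial genes, among them KRT8 and EPCAM, had a mean of at least 1 CPM (counts scaled to a library total of 1000000) in both lines when alone. A cut at 1 CPM does not tell the lines apart. Over all libraries EPCAM was at 675 ± 141 CPM (SD, n = 68) in AsPC-1 and 9.04 ± 2.52 CPM (SD, n = 68) in PANC-1. KRT7 was at 9.11 ± 3.99 and 12.2 ± 3.33 CPM (SD, n = 68 each). The immune markers PTPRC, CD3E and MS4A1 were at 0 in the alone AsPC-1 libraries, and PTPRC and CD3E in those of PANC-1, and no endothelial marker reached a mean of 1 CPM. Of the 6 immune genes 1 had a mean of at least 1 CPM in each line alone. Over all libraries CD68 was at 3.90 ± 2.38 CPM (SD, n = 68) in AsPC-1 and 2.70 ± 2.15 CPM (SD, n = 68) in PANC-1. CD14 was at 1.02 ± 1.01 CPM (SD, n = 68) in AsPC-1. Of the 6 fibroblast genes, LUM was measured at 121 ± 56.6 CPM (SD, n = 68) in AsPC-1 and COL1A1 at 65.6 ± 20.2 CPM (SD, n = 68) in PANC-1. The summed fibroblast list in AsPC-1 was at 43.3 to 85.3 CPM alone and at 73.7 to 246 CPM with MEK inhibitors, while the epithelial list was at 2946 to 4078 CPM alone and at 4388 to 7768 CPM with MEK inhibitors. In PANC-1 the epithelial list was at 592 to 773 CPM alone and at 340 to 657 CPM with MEK inhibitors. The fibroblast list there was at 36.8 to 65.3 CPM alone (median 56.1) and at 53.9 to 121 CPM with MEK inhibitors (median 80.2). With MEK inhibitors the fibroblast list was thus at higher levels in both lines, with ranges that overlapped, and the epithelial list only in AsPC-1. The part of these lists in the results was not tested. In cells measured in bulk, fewer cells of one kind and less RNA per cell cannot be told apart.

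Most of the ribosome biogenesis factors were lower with MEK and ERK inhibitors in AsPC-1, while fewer of them were lower in PANC-1. With MEK inhibitors 32 of the 40 members were lower in AsPC-1, where 16.1% of all 12761 tested genes were lower, and 10 of 40 were lower in PANC-1, where 10.6% of 12627 genes were. With ERK inhibitors 31 of 40 were lower in AsPC-1 against 17.4% of all genes, and 6 of 40 in PANC-1 against 8.68% of all genes. With RAF inhibitors 15 of 40 were lower in AsPC-1 against 4.91% of all genes, and 1 of 40 in PANC-1, which was EIF6, against 0.436% of all genes. The RAF count in AsPC-1 was 5 with hydroxychloroquine as the only partner (1.68% of all genes) and 5 with the Vps34 inhibitor (2.48%). It was 1 on plate A alone, 0 on plate B alone, 5 with drugs as replicates and 6 to 12 with a replicate left out. On plates A and B alone the MEK counts were 20 and 18 for AsPC-1 and 5 and 3 for PANC-1, and the ERK counts 27 and 21 for AsPC-1 and 0 and 0 for PANC-1. For the plates, the drugs as replicates and the left-out replicates the shares of all genes are not given here. Fewer members called and fewer genes called in general thus cannot be told apart in these settings. A gene was called at an adjusted p under 0.05 by edgeR's quasi-likelihood test with Benjamini-Hochberg adjustment over all genes tested. The labels do not say whether libraries of a group came from separately grown cultures, so these p-values measure the spread between these libraries, which may be technical.

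No member was called higher with any class in either line by edgeR or by DESeq2. The share of all genes called higher was 12.9% in AsPC-1 and 7.9% in PANC-1 with MEK inhibitors, 13.7% and 5.45% with ERK inhibitors, and 3.75% and 0.103% with RAF inhibitors. At an unadjusted p under 0.05, 1 member was higher with MEK inhibitors in PANC-1 (NHP2) and 0 were higher in the other 5 class comparisons.

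For MEK inhibitors the members' median log2 fold change was −0.50 in AsPC-1, against −0.18 for PANC-1. With ERK inhibitors the medians of the same lines were −0.57 and −0.07, and with RAF inhibitors −0.21 and −0.06. The median over all tested genes lay between −0.06 and −0.02 in these 6 comparisons. On plate A alone the AsPC-1 medians were −0.48, −0.58 and −0.19 for MEK, ERK and RAF inhibitors, and on plate B alone −0.51, −0.60 and −0.20. For PANC-1 plate A gave −0.18, −0.14 and −0.06, while plate B gave −0.15, −0.03 and −0.03.

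A score per library, the mean over members of log2(CPM + 1) minus the same mean over the alone libraries of the line, shows how far the libraries separate. In AsPC-1 the alone libraries ran from −0.23 to 0.23, with a median of 0.01. The MEK libraries ran from −0.85 to 0.07 with a median of −0.55, and 18 of 20 were below every alone library. The ERK libraries ran from −1.13 to −0.21 with a median of −0.57, and 15 of 16 were below every alone library. Of the RAF libraries 9 of 20 were. In PANC-1 the alone libraries ran from −0.15 to 0.13, and 9 of 20 MEK, 4 of 16 ERK and 1 of 20 RAF libraries were below all of them. As a share of all counts, the 40 members together made up 0.576% ± 0.0487 (SD, n = 12) alone, 0.394% ± 0.0643 (SD, n = 20) with MEK and 0.369% ± 0.058 (SD, n = 16) with ERK inhibitors in AsPC-1. In PANC-1 the shares were 0.971% ± 0.0457 (SD, n = 12), 0.869% ± 0.0773 (SD, n = 20) and 0.919% ± 0.0682 (SD, n = 16).

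**Figure D1:**
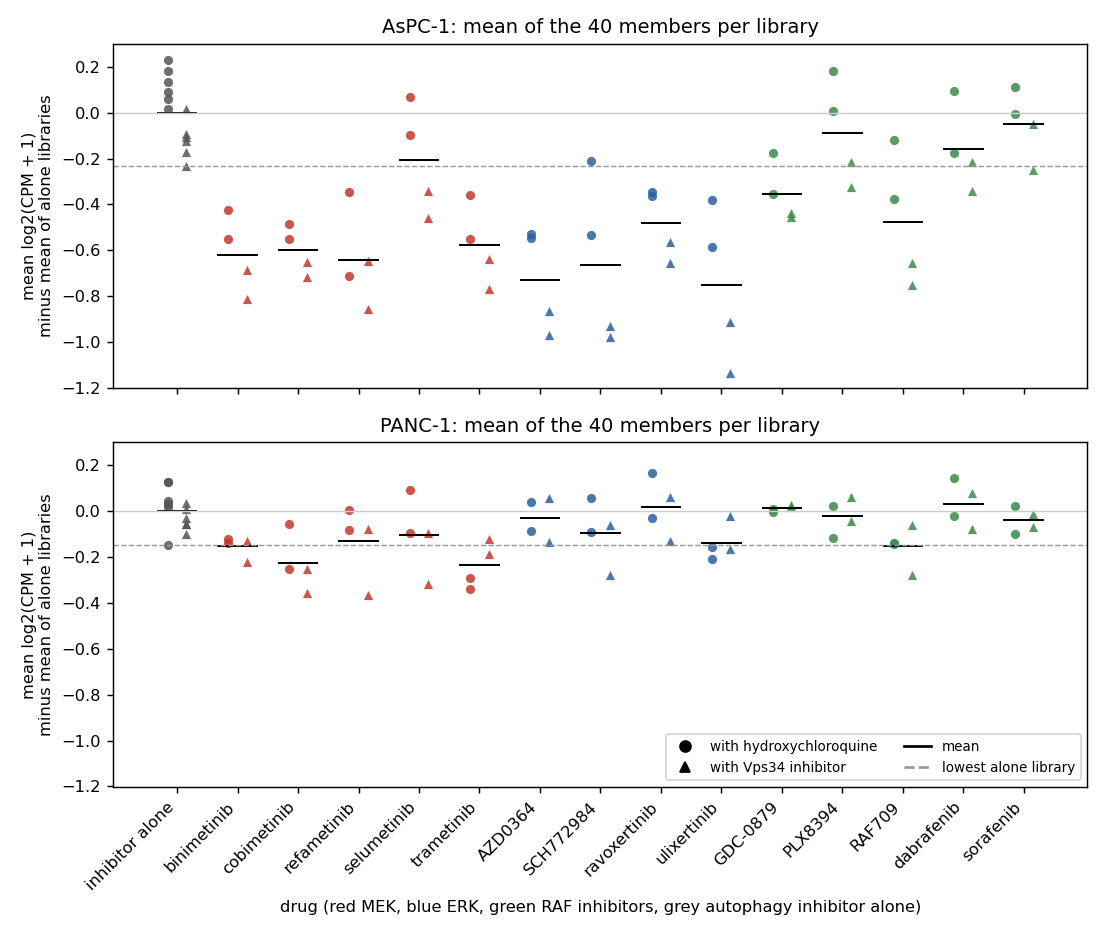
Score of the 40 members in each library (y axis, mean of log2(CPM + 1) minus the mean of the line's alone libraries) by drug (x axis) in AsPC-1 (top) and PANC-1 (bottom); circles are libraries with hydroxychloroquine, triangles with the Vps34 inhibitor, black bars the mean, and the dashed line the lowest alone library. In AsPC-1 18 of 20 MEK and 15 of 16 ERK libraries lie under the dashed line, in PANC-1 9 of 20 and 4 of 16.

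MYC itself was lower in AsPC-1 with MEK and ERK inhibitors. Alone, its level in AsPC-1 had a lowest value of 65.6, a median of 83.7 and a highest value of 109 CPM. With ERK inhibitors the lowest was 28.6, the median 44.1 and the highest 61.4 CPM, so that all 16 libraries lay below the lowest alone library. The log2 fold change was −0.92 ± 0.14 (SE, edgeR adjusted p = 9.78e-07). With MEK inhibitors MYC had a lowest value of 35.6, a median of 49.5 and a highest of 147 CPM, and 15 of 20 libraries were below all alone libraries (−0.53 ± 0.13, edgeR adjusted p = 0.00175). On plate A alone the MEK estimate was −0.28 and on plate B alone −0.74, and it did not pass on plate A or with hydroxychloroquine as the only partner (−0.45). The ERK estimates were −0.91 and −0.89 on the separate plates. With RAF inhibitors it ran from 49.5 to 156 CPM with a median of 84.4, and the groups overlapped (0.07 ± 0.13, edgeR adjusted p = 0.852).

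In PANC-1 MYC had fewer counts and a wider relative spread: alone, the lowest value was 17.5, the median 38.6 and the highest 55.5 CPM. With MEK inhibitors it ran from 17.3 to 54.9 CPM with a median of 30.8, and only 1 of 20 libraries was below all alone libraries. The change of −0.39 ± 0.14 (edgeR adjusted p = 0.0372) passed the threshold narrowly and was lost in 11 of the other settings tried. With ERK inhibitors the median was 31.7 CPM (−0.26 ± 0.14, edgeR adjusted p = 0.243) and with RAF inhibitors 34.3 CPM (−0.23 ± 0.14, edgeR adjusted p = 0.521). The difference between the lines, AsPC-1 minus PANC-1, was −0.66 ± 0.20 for ERK inhibitors (edgeR adjusted p = 0.0163), and −0.15 for MEK and 0.30 for RAF inhibitors, neither of which passed. On either plate alone the ERK difference (−0.80 and −0.58) did not pass.

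By single drug, MYC in AsPC-1 was lower with all 4 ERK inhibitors. With AZD0364 the 4 libraries had 35.2 and 58.7 CPM with hydroxychloroquine and 28.6 and 37.8 CPM with the Vps34 inhibitor (−1.01 ± 0.23, edgeR adjusted p = 0.000915). With SCH772984 they had 45.7 and 29.7, and 47.6 and 45.6 CPM (−0.98 ± 0.23, edgeR adjusted p = 0.00152). Every one of these libraries was below the lowest alone library. Of the MEK inhibitors, trametinib gave 51.6 and 38.5, and 48.2 and 46.5 CPM (−0.82 ± 0.23, edgeR adjusted p = 0.00812), and cobimetinib 50.3 and 43.5, and 58.8 and 46.1 CPM (−0.70 ± 0.23, edgeR adjusted p = 0.0251). With binimetinib the pairs differed by partner, at 89.2 and 81.8 CPM with hydroxychloroquine and 43.5 and 51.9 CPM with the Vps34 inhibitor, and the change of −0.34 ± 0.22 did not pass (edgeR adjusted p = 0.335). Selumetinib held both the highest MEK library, 147 CPM with hydroxychloroquine on plate A, and the lowest, 35.6 CPM with the same partner on plate B. GDC-0879 and RAF709, with which 13 and 16 of the members were lower, gave MYC estimates of 0.16 ± 0.21 and −0.22 ± 0.22, neither of which passed. In PANC-1 MYC was called with no single drug by edgeR. Its lowest unadjusted p-values were 0.0169 with trametinib (−0.56 ± 0.22), 0.0209 with SCH772984 (−0.53 ± 0.22), 0.0336 with RAF709 and 0.039 with GDC-0879.

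**Figure D2:**
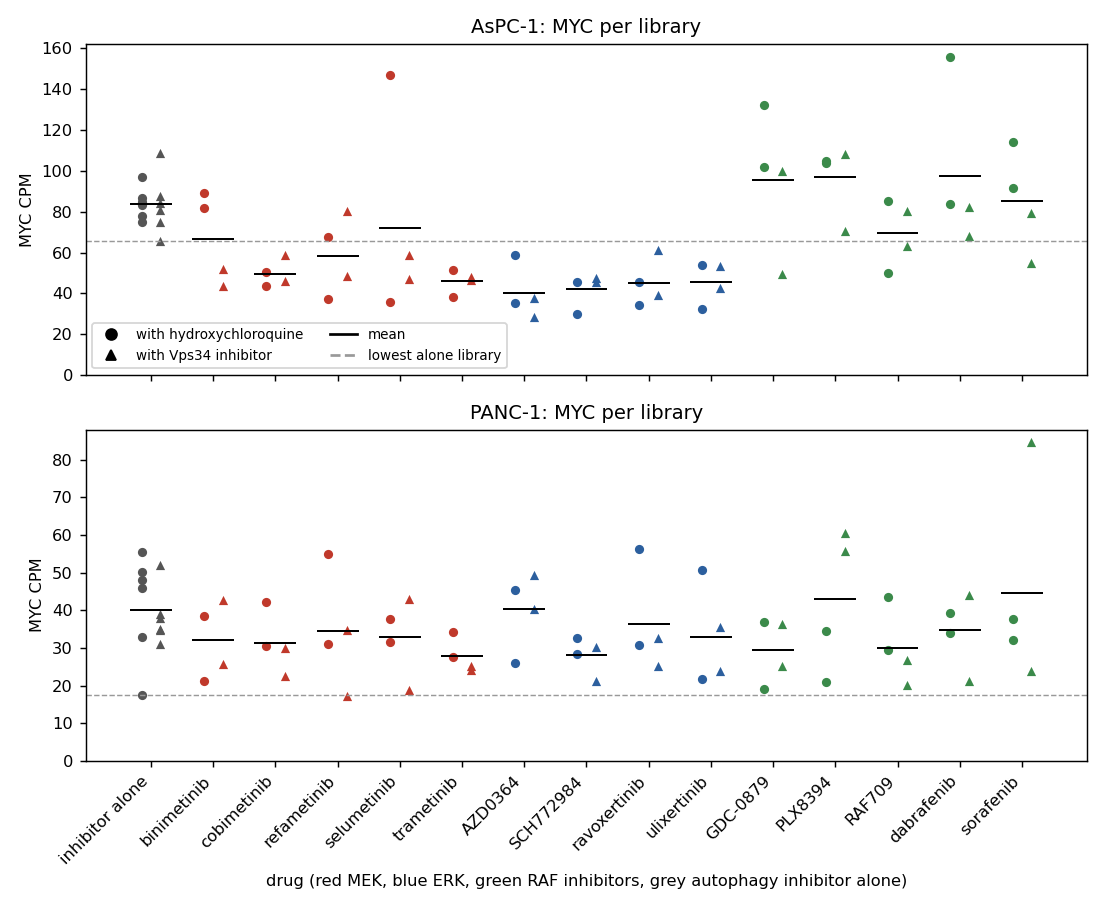
MYC in each library in CPM (y axis, from 0) by drug (x axis) in AsPC-1 (top) and PANC-1 (bottom); circles are libraries with hydroxychloroquine, triangles with the Vps34 inhibitor, bars the mean and the dashed line the lowest alone library. All 16 AsPC-1 libraries with ERK inhibitors lie under the dashed line at 65.6 CPM, and in PANC-1 the groups overlap.

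The 3 members at RNA polymerase I were TCOF1 (treacle, a nucleolar cofactor of ribosomal gene transcription) and the subunits POLR1B and POLR1C. TCOF1 in AsPC-1 ran from 108 to 175 CPM alone with a median of 136.02, from 33.2 to 158 with MEK inhibitors with a median of 78, and from 25.2 to 128 with ERK inhibitors with a median of 63.4. With MEK inhibitors 19 of 20 libraries lay below all alone libraries (−0.85 ± 0.08, edgeR adjusted p = 8.68e-13), and with ERK inhibitors 15 of 16 (−1.12 ± 0.09, edgeR adjusted p = 3.04e-16). TCOF1 was also among the few members lower in PANC-1, by −0.60 ± 0.12 with MEK inhibitors (edgeR adjusted p = 0.000234) and −0.49 ± 0.13 with ERK inhibitors (edgeR adjusted p = 0.00543). POLR1B, the second largest subunit of the enzyme, was lower in both lines with both classes, by −0.42 ± 0.15 and −0.72 ± 0.16 in AsPC-1 and by −0.31 ± 0.09 and −0.28 ± 0.10 in PANC-1 for MEK and ERK inhibitors. POLR1C, which RNA polymerases I and III share, was called in no class comparison.

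All 4 members of the box C/D snoRNPs, which guide methylation of ribosomal RNA, were lower in AsPC-1 with MEK and with ERK inhibitors. Among all genes 16.1% and 17.4% were. NOP56, a scaffold of the particle, ran from 284 to 402 CPM alone in AsPC-1 with a median of 357, from 157 to 273 with MEK inhibitors with a median of 197, and from 110 to 270 with ERK inhibitors with a median of 182. Neither the 20 MEK nor the 16 ERK libraries overlapped the alone libraries. The changes were −0.76 ± 0.06 (edgeR adjusted p = 1.65e-16) and −0.89 ± 0.06 (edgeR adjusted p = 2.19e-18). In PANC-1 NOP56 ran from 710 to 884 CPM alone and from 499 to 851 with MEK inhibitors, and 12 of 20 libraries were below all alone libraries (−0.27 ± 0.05, edgeR adjusted p = 1.15e-05). With ERK inhibitors it was lower by −0.17 ± 0.05 (edgeR adjusted p = 0.012). FBL, the methyltransferase of the particle, was lower by −0.51 ± 0.08 with MEK inhibitors in AsPC-1 and by −0.19 ± 0.05 in PANC-1, where its level alone was 2020 CPM against 104 in AsPC-1. That difference in level lies between lines grown on separate plates, with which it cannot be told apart. NOP58, the partner scaffold, was lower by −0.42 ± 0.08 and RRP9, which binds the U3 particle, by −0.67 with MEK inhibitors in AsPC-1.

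The box H/ACA snoRNPs guide pseudouridylation, and 2 of their 4 members were called lower in AsPC-1 with MEK and with ERK inhibitors. The shares of all genes were 16.1% and 17.4%. DKC1, the pseudouridine synthase, ran from 107 to 258 CPM alone in AsPC-1 with a median of 168, from 57 to 180 with MEK inhibitors with a median of 97.4, and from 44.6 to 150 with ERK inhibitors with a median of 78.5. These ranges overlapped, with 14 of 20 and 13 of 16 libraries below all alone libraries (−0.74 ± 0.07, edgeR adjusted p = 2.1e-12, and −0.99 ± 0.08, edgeR adjusted p = 3.26e-16). NOLC1, a chaperone of snoRNPs in the nucleolus, was lower by −0.64 ± 0.07 and −0.76 ± 0.08. The core proteins NHP2 (−0.16 ± 0.08 with MEK, −0.18 ± 0.08 with ERK inhibitors) and GAR1 (−0.30 ± 0.24 and −0.55 ± 0.25) were called with no class in AsPC-1. GAR1 was low there, with a mean of 10.9 CPM alone. At an unadjusted p under 0.05, 3 of the 4 members were lower in AsPC-1 with MEK and all 4 with ERK inhibitors. In PANC-1 none of the 4 was called by edgeR with MEK or ERK inhibitors, near the 10.6% and 8.68% of all genes that were lower. At an unadjusted p under 0.05, 1 was lower and 1 higher there with MEK inhibitors and 0 either way with ERK inhibitors.

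The small subunit list holds 9 factors, most of them parts of the U3 processome that cuts the precursor. In AsPC-1 7 were lower with MEK and 6 with ERK inhibitors, against 16.1% and 17.4% of all genes. In PANC-1 1 and 0 were, near the 10.6% and 8.68% of all genes. NOP14 ran from 54.9 to 97.1 CPM alone in AsPC-1 with a median of 77.5, from 31.7 to 75.3 with MEK inhibitors with a median of 53.7, and from 24.2 to 69.6 with ERK inhibitors with a median of 45.8. In each class 11 libraries were below all alone libraries (−0.47 ± 0.09, edgeR adjusted p = 2.08e-05, and −0.68 ± 0.09, edgeR adjusted p = 1.56e-08). In PANC-1 NOP14 ran from 65.9 to 102 CPM alone and from 66.9 to 103 with MEK inhibitors, and no MEK or ERK library was below all alone libraries. UTP15 (−0.56 ± 0.13) and WDR75 (−0.35 ± 0.08), both of the processome's UTP-A part, were lower with MEK inhibitors in AsPC-1. RRP12, an export factor, was the member lower in PANC-1 with MEK inhibitors (−0.32 ± 0.09, edgeR adjusted p = 0.00715), with 11 of 20 libraries below all alone libraries.

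The large subunit list holds 15 factors, of which 12 were lower with MEK and 12 with ERK inhibitors in AsPC-1, and 4 and 3 in PANC-1. The shares of all genes were 16.1% and 17.4% in AsPC-1, and 10.6% and 8.68% in PANC-1. EIF6, which keeps the new large subunit from joining the small one, was the one member lower with all 3 classes in both lines, comparisons that share the alone libraries of each line. In AsPC-1 it ran from 367 to 639 CPM alone with a median of 457 and from 276 to 419 with MEK inhibitors with a median of 326, with 15 of 20 libraries below all alone libraries (−0.50 ± 0.05, edgeR adjusted p = 1.26e-11). In PANC-1 it ran from 608 to 886 CPM alone with a median of 692 and from 368 to 621 with MEK inhibitors with a median of 461. There 19 of 20 libraries lay below all alone libraries (−0.60 ± 0.06, edgeR adjusted p = 8.57e-12). With RAF inhibitors EIF6 was lower by −0.21 ± 0.05 in AsPC-1 and −0.41 ± 0.06 in PANC-1.

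NOC2L, which escorts large subunit precursors, had the most negative MEK estimate of all members in PANC-1, −1.13 ± 0.14 (edgeR adjusted p = 6.02e-08). Its levels there ran from 54 to 147 CPM alone with a median of 108 and from 16.8 to 84 with MEK inhibitors with a median of 48.5, and 12 of 20 libraries were below all alone libraries. In AsPC-1 its change was −0.66 ± 0.16 (edgeR adjusted p = 0.0011). RRS1, which brings the 5S particle to the precursor, was lower in PANC-1 by −0.46 ± 0.12 with MEK and −0.42 ± 0.13 with ERK inhibitors, and NIP7, a factor of late pre-rRNA cutting, by −0.31 ± 0.08 with MEK inhibitors. DDX18, a nucleolar helicase, was lower by −0.47 ± 0.07 and MRTO4, which holds the place of the stalk protein on the precursor, by −0.73 ± 0.10 with MEK inhibitors in AsPC-1. BOP1, which forms a complex with PES1 and WDR12, had the most negative class estimates in AsPC-1, −1.24 with MEK and −1.27 with ERK inhibitors, at low counts. It ran from 8.06 to 20.1 CPM alone, and 1 library of each class held no BOP1 count.

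The 4 nucleolar proteins with several roles were lower in AsPC-1 with all 3 classes and in PANC-1 with none. Among all genes 16.1%, 17.4% and 4.91% were lower with MEK, ERK and RAF inhibitors in AsPC-1. In PANC-1 10.6%, 8.68% and 0.436% were, so 0 of 4 is near the share there. DDX21, a helicase that links RNA polymerase I and snoRNA function, ran from 261 to 527 CPM alone in AsPC-1 with a median of 387, from 151 to 370 with MEK inhibitors with a median of 215, and from 135.7 to 289 with ERK inhibitors with a median of 217. In both classes 14 libraries were below all alone libraries (−0.73 ± 0.07, edgeR adjusted p = 3.48e-13, and −0.92 ± 0.07, edgeR adjusted p = 4.42e-16). In PANC-1 it ran from 509 to 811 CPM alone, from 406 to 762 with MEK and from 483 to 1055 with ERK inhibitors, and the groups overlapped (−0.15 ± 0.08 and 0.05 ± 0.08). LYAR, a nucleolar zinc finger protein, was lower by −0.83 ± 0.11 and −1.08 ± 0.11 in AsPC-1. NCL (nucleolin), the abundant RNA chaperone of the nucleolus, was lower by −0.83 ± 0.10 and −0.93 ± 0.11. By edgeR 0 of the 4 were called in PANC-1, and at an unadjusted p under 0.05 1 was lower with MEK and 1 with ERK inhibitors.

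Promoter windows of RefSeq on GRCh38.p14, from 250 bases before to 50 after a start site, were matched by symbol to 31 of the 40 members. MYC, TCOF1, NOLC1 and DDX18 are among the members without a window. The E-box that MYC and MAX bind, CACGTG (the same on both strands), was present in at least 1 window of 15 of these 31 members (48.4%), in 25 of 90 other ribosome factors with a window (27.8%), in 1246 of the 10022 genes tested in AsPC-1 that have a window (12.4%) and in 2396 of all 27305 genes with a window (8.77%). These are matches of letters in windows of the same length and say nothing of binding in these cells. The 4 members below are the only ones of the 15 with an E-box wholly before a start site. In the rest it overlapped or followed a start. The 4 show it in capitals within 30 bases, given 5′ to 3′ on the gene's strand:
DDX21: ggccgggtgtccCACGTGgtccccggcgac
LYAR: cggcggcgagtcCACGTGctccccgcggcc
UTP4: tgagagcgcgcgcgCACGTGgggccggggc
UTP20: gcgccgttcttttttccgtcCACGTGaccc

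The stretch of DDX21 is chr10:68956604-68956633 on the plus strand, with the E-box starting 31 bases before a RefSeq start. That of LYAR is chr4:4290068-4290097 on the minus strand, 64 bases before a start. Those of UTP4 (chr16:69132619-69132648, plus strand) and UTP20 (chr12:101280075-101280104, plus strand) have it 16 and 10 bases before. In GENCODE v29 the first 3 stretches overlap an annotated exon and untranslated region of another transcript of the same gene, and that of UTP20 lies outside the gene. With MEK inhibitors in AsPC-1 UTP4 was lower by −0.43 ± 0.11 (edgeR adjusted p = 0.00119) and UTP20 had an estimate of −0.54 ± 0.22 that did not pass (edgeR adjusted p = 0.0547). NOP56, the member with the smallest adjusted p in that comparison, had no E-box in its window.

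The difference between the lines was tested member by member in 1 fit of both. For ERK inhibitors 23 of 40 members had a more negative effect in AsPC-1, against 7.49% of all 13960 genes tested, with a median difference of −0.51 on the log2 scale (−0.47 on plate A alone and −0.63 on plate B alone). For MEK inhibitors 14 of 40 did, against 6.08% of genes, with a median of −0.34 (−0.39 and −0.34 on the separate plates), and for RAF inhibitors 2 of 40, against 0.874%, with a median of −0.15 (−0.12 and −0.14). No member differed the other way by edgeR or DESeq2. At an unadjusted p under 0.05, 1 did for MEK inhibitors, 0 for ERK and 1 for RAF inhibitors. On plates A and B alone the counts of members more negative in AsPC-1 were 8 and 6 for ERK, 1 and 4 for MEK, and 0 and 0 for RAF inhibitors. The shares of all genes on the separate plates are not given here.

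NOP56 had the smallest p in this test for both ERK (−0.73 ± 0.08, edgeR adjusted p = 3.67e-12) and MEK inhibitors (−0.49 ± 0.08, edgeR adjusted p = 3.3e-07). DDX21 differed by −0.97 ± 0.11 and −0.58 ± 0.11, MRTO4 by −0.78 ± 0.12 and −0.58 ± 0.11, and DKC1 by −0.86 ± 0.12 and −0.54 ± 0.11. NOP14 was the fifth member by p for ERK inhibitors (−0.71 ± 0.11), and NOLC1 the fourth for MEK inhibitors (−0.64 ± 0.12). For RAF inhibitors the 2 members were NOP56 (−0.31 ± 0.08, edgeR adjusted p = 0.0121) and DDX21 (−0.39 ± 0.11, edgeR adjusted p = 0.0284). By role, all 4 of the nucleolar proteins with several roles and 3 of the 4 box H/ACA members differed for both MEK and ERK inhibitors. Among all genes 6.08% and 7.49% had a more negative effect in AsPC-1. Of the box H/ACA members only DKC1 and NOLC1 were also called lower in AsPC-1. NHP2, called in neither line with MEK inhibitors, had −0.16 ± 0.08 in AsPC-1 and 0.20 ± 0.09 in PANC-1. Of the RNA polymerase I members TCOF1 differed for ERK inhibitors and none did for MEK inhibitors, where 0 also passed an unadjusted p under 0.05. EIF6 and NOC2L, the members with the strongest calls in PANC-1, were not among those that differed for any class.

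**Figure D3:**
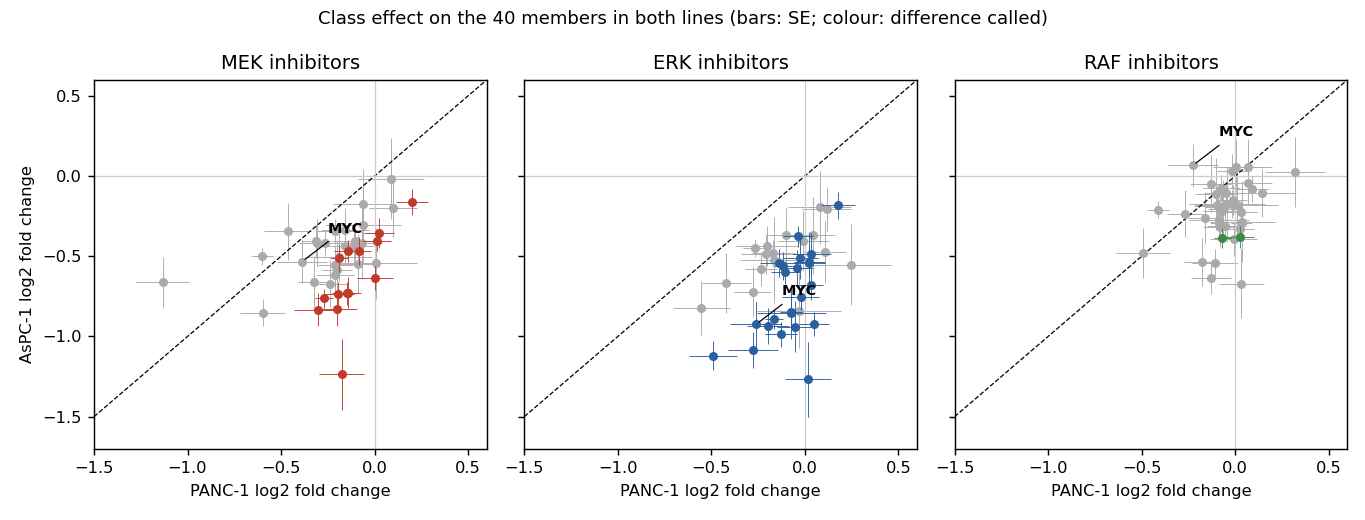
Class effect on each of the 40 members as log2 fold change in PANC-1 (x axis) and AsPC-1 (y axis) for MEK, ERK and RAF inhibitors, with bars for the standard error; coloured points are members whose effect differed between the lines at an adjusted p under 0.05, and the dashed line marks equal effects. For ERK inhibitors all 40 points lie below the dashed line and 23 are coloured, for MEK inhibitors 37 lie below and 14 are coloured, and for RAF inhibitors 32 lie below and 2 are coloured.

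Single drugs were compared with 4 libraries each against the same 12 alone libraries, so their results are not independent of one another. Of the MEK inhibitors in AsPC-1, binimetinib had 26 of 40 members lower (7.59% of all genes), refametinib 22 (8.49%), cobimetinib 21 (8.09%), trametinib 21 (7.6%) and selumetinib 6 (3.64%). In PANC-1 trametinib had 9 members lower (7.49% of all genes), binimetinib 6 (3.96%), cobimetinib 6 (4.43%), refametinib 3 (3.49%) and selumetinib 3 (2.06%). In PANC-1 the member median was −0.30 with trametinib and −0.10 with binimetinib. A test of one drug against the other was not made.

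Of the ERK inhibitors in AsPC-1, ulixertinib had 27 members lower (10.9% of all genes), SCH772984 27 (9.04%), AZD0364 26 (9.02%) and ravoxertinib 17 (7.27%). In PANC-1 ulixertinib had 6 (7.88%), SCH772984 2 (4.01%), ravoxertinib 2 (2.57%) and AZD0364 1 (2.97%), which was NOC2L. Member medians in AsPC-1 were between −0.69 with ulixertinib and −0.47 with ravoxertinib, and in PANC-1 between −0.15 and −0.01 with the same pair.

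Counts for the RAF inhibitors in AsPC-1 ran from 0 to 16. RAF709 had 16 members lower (6.1% of all genes), GDC-0879 13 (5.12%) and dabrafenib 4 (1.61%), which were NOP56, NCL, NOLC1 and TCOF1. With PLX8394 and sorafenib edgeR and DESeq2 called 0 members (0.4% and 0.0157% of all genes), and 1 and 5 were lower at an unadjusted p under 0.05. In PANC-1 RAF709 had 3 members lower (4.42% of all genes), which were EIF6, FBL and NOC2L, and GDC-0879 1 (0.127%), EIF6. Dabrafenib, PLX8394 and sorafenib had 0 by edgeR in PANC-1 (0.0238%, 0.0475% and 0.0317% of all genes), with 1, 3 and 2 at an unadjusted p under 0.05 and 0, 2 and 0 by DESeq2. GDC-0879 had a member median of −0.37 in AsPC-1. The PANC-1 median was −0.02, and all 4 library scores there lay between −0.002 and 0.03.

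Over the 14 drugs, 226 of 560 member-by-drug comparisons were lower in AsPC-1 and 42 in PANC-1. The share of all genes lower ran from 0.0157% (sorafenib) to 10.9% (ulixertinib) in AsPC-1. In PANC-1 it ran from 0.0238% (dabrafenib) to 7.88% (ulixertinib). With every drug but sorafenib that share was larger in AsPC-1. For the counts over several drugs that follow, the same counts over all genes are not given here. TCOF1, NOP56, DKC1, NOLC1, DDX18 and EIF6 were each lower with all 9 MEK and ERK inhibitors in AsPC-1. In PANC-1 EIF6 was lower with 7 of the 9 and NOC2L with 6 of the 9.

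**Figure D4:**
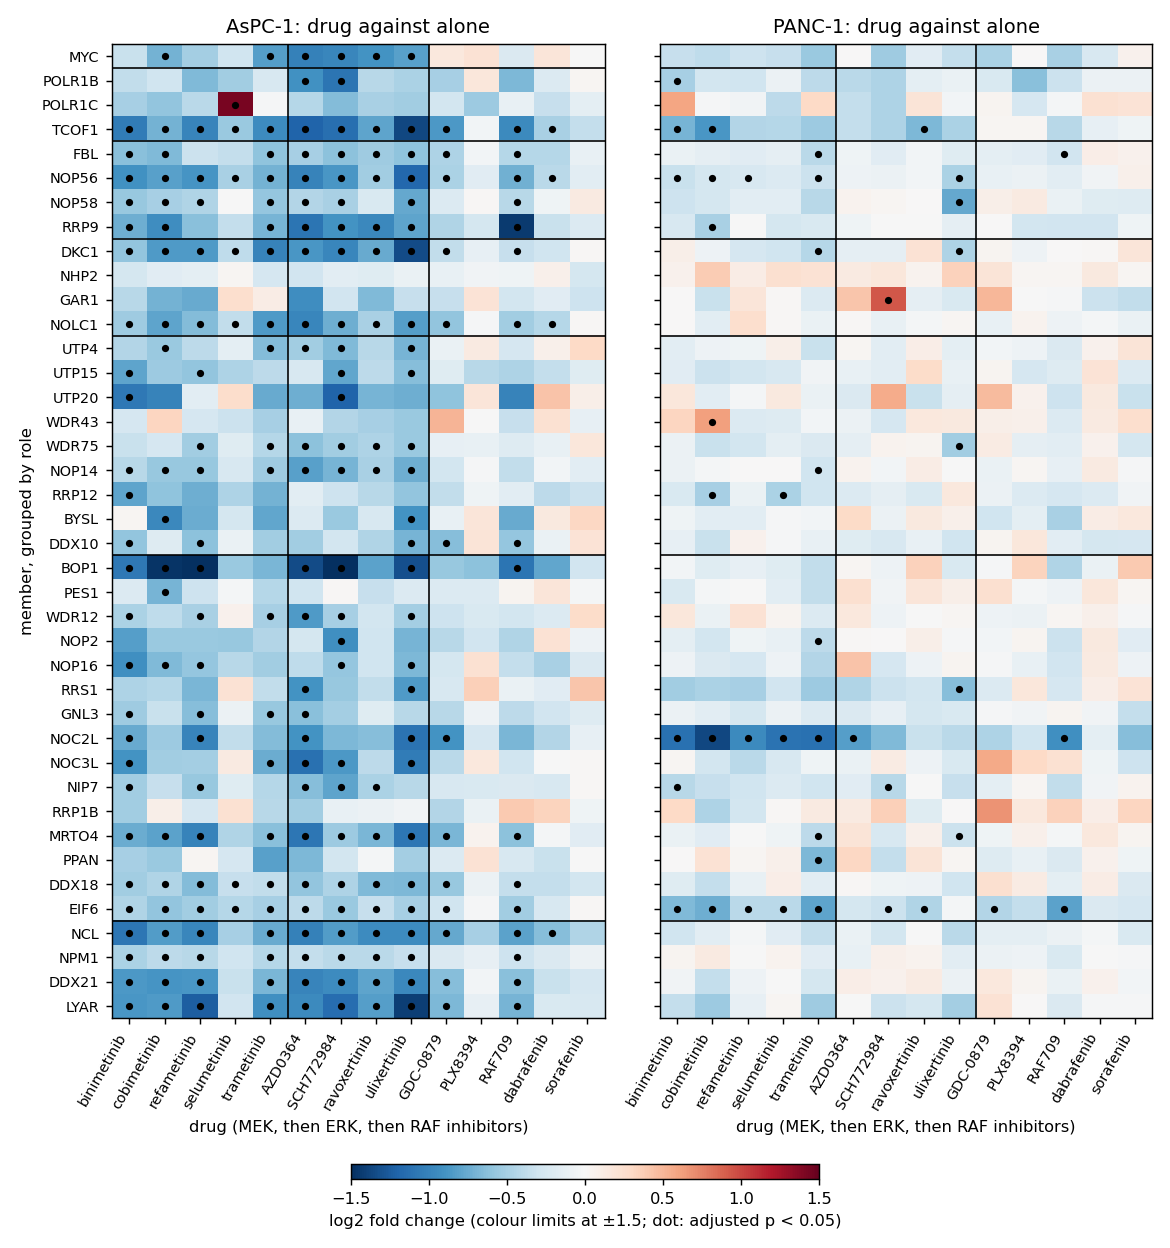
Log2 fold change of each member (rows, grouped by role, lines between groups) with each drug against alone (columns, MEK, ERK and RAF inhibitors from left to right) in AsPC-1 and PANC-1; blue is lower, red higher, the colours are limited at ±1.5 and a dot marks an adjusted p under 0.05. AsPC-1 holds 226 dots for lower members and 1 for a higher one, PANC-1 42 and 2.

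Each drug's effect was also tested for a difference between the lines. AZD0364 had 15 members with a more negative effect in AsPC-1 (3.4% of all genes), refametinib 11 (2.48%), ravoxertinib 9 (3%), ulixertinib 9 (3.55%), binimetinib 8 (2.29%), cobimetinib 7 (2.43%), SCH772984 7 (2.29%), GDC-0879 5 (2.89%), trametinib 2 (2.02%) and RAF709 2 (1.23%). The 2 members were NOP56 and NOLC1 for trametinib, and NOP56 and RRP9 for RAF709. Selumetinib (0.867%), dabrafenib (0.287%), PLX8394 (0.00716%) and sorafenib (0.0215%) had 0 by edgeR, with 6, 8, 1 and 1 at an unadjusted p under 0.05. For MYC alone AZD0364 was the drug whose effect differed.

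Among single drugs 3 members were called higher, and in each case 1 library on plate B held the highest level. POLR1C with selumetinib in AsPC-1, among 3.81% of genes called higher, had 41.9 and 1161 CPM with hydroxychloroquine on plates A and B, and 30.2 and 66.2 CPM with the Vps34 inhibitor (1.43 ± 0.38, edgeR adjusted p = 0.012). Without the plate B libraries of the combinations its estimate was −0.46 ± 0.67 (edgeR adjusted p = 0.88). The same gene was the one member whose selumetinib effect was higher in AsPC-1 than in PANC-1, where 0.723% of genes were. GAR1 with SCH772984 in PANC-1 (2.87% of genes higher) had 69.8 CPM in 1 library and 9.26 to 39.1 CPM in the other 3, against 10.6 to 34.4 CPM alone, and WDR43 with cobimetinib in PANC-1 (4.21% of genes higher) had 368 CPM in 1 library and 76.8 to 87.5 in the other 3. Without the plate B libraries of the combinations their estimates were −0.11 ± 0.36 and −0.14 ± 0.16. The AsPC-1 library of the same treatment and plate also held the highest WDR43 level of the cobimetinib libraries there, 210 CPM against 30.9 to 56.7 CPM in the other 3.

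The 10 genes listed as direct ERK output, among them SPRY4, DUSP4, DUSP6 and PHLDA1, which ERK induces, were followed as transcripts. These data hold no measure of kinase activity, and the part of the pathway's block in the members' changes was not tested. With MEK inhibitors 9 of 9 tested were lower in AsPC-1 and 8 of 8 in PANC-1, against 16.1% and 10.6% of all genes. The medians were −1.30 and −1.94, over the 9 and the 8 genes tested. In the fit of both lines, with all 10 tested, the median difference was 0.43. With ERK inhibitors 8 of 9 and 8 of 8 were lower, against 17.4% and 8.68% of all genes, with medians of −1.81 and −1.63. SPRY4 was lower by −2.84 ± 0.11 with MEK inhibitors in AsPC-1 and by −3.27 ± 0.13 in PANC-1. The difference between the lines passed for DUSP6 (1.47 ± 0.27, edgeR adjusted p = 2.28e-05), SPRY2 and ETV5 with MEK inhibitors, and each had the more negative effect in PANC-1. With ERK inhibitors it passed for SPRY2 (1.11 ± 0.35) and DUSP6 (0.87 ± 0.30), more negative in PANC-1, and for PHLDA1 (−0.34 ± 0.10), more negative in AsPC-1, and the median difference was −0.05.

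The medians by drug are over the 9 ERK output genes tested in AsPC-1 and the 8 tested in PANC-1, so the sets are not the same. With refametinib the ERK output median was −1.69 in AsPC-1 against −2.64 in PANC-1, and that of the 40 members −0.58 against −0.12. For AZD0364 the pairs were −1.74 and −1.88 for ERK output, and −0.66 and −0.06 for the members. For RAF709 they were −1.14 and −1.97 for ERK output, and −0.38 and −0.20 for the members. The ERK output median was also more negative in PANC-1 with binimetinib, cobimetinib, selumetinib, trametinib and SCH772984. The member median with each of these drugs was more negative in AsPC-1. With ulixertinib, ravoxertinib, GDC-0879 and dabrafenib the ERK output median was more negative in AsPC-1. For ulixertinib it was −2.39 against −1.64, with member medians of −0.69 and −0.15. For ravoxertinib it was −1.46 against −1.14, with member medians of −0.47 and −0.01, and for GDC-0879 −0.85 against −0.09, with member medians of −0.37 and −0.02. With PLX8394 and sorafenib, 0 ERK output genes were called in either line by edgeR. The drugs of a line share the alone libraries, so these pairs are given as values with no correlation.

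**Figure D5:**
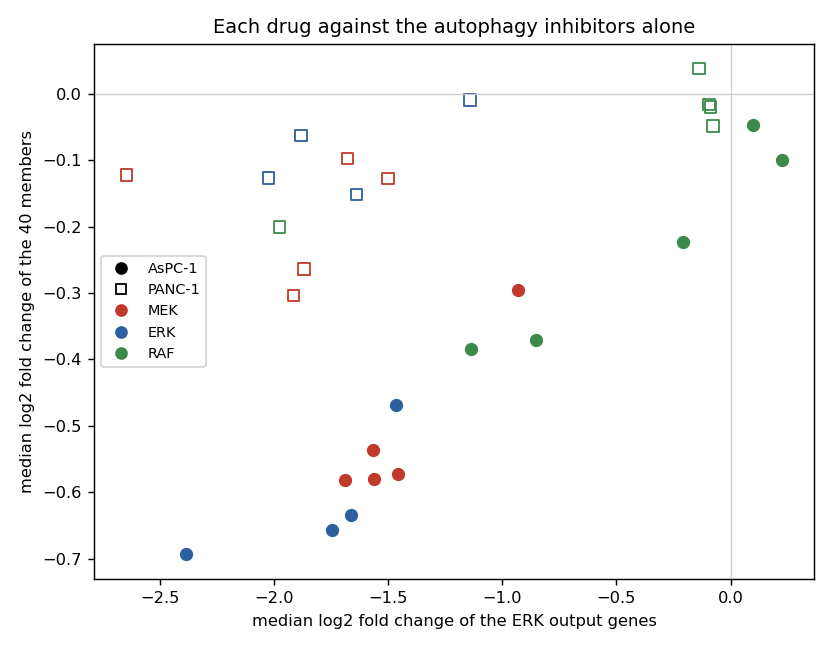
Median log2 fold change of the tested ERK output genes (x axis, 9 genes for AsPC-1, 8 for PANC-1) and of the 40 members (y axis) for each of the 14 drugs; filled circles are AsPC-1, open squares PANC-1, and colours mark the drug class. The PANC-1 MEK and ERK points lie at ERK output medians of −2.64 to −1.14 with member medians of −0.30 to −0.01, and the AsPC-1 ones at −2.39 to −0.93 with member medians of −0.69 to −0.30.

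A further 110 factors of the same process that are not members were counted in the same way. With MEK inhibitors 54 of 109 tested were lower in AsPC-1, against 16.1% of all genes, and 26 of 110 in PANC-1, against 10.6%. The medians were −0.35 and −0.14. With ERK inhibitors 70 of 109 were lower in AsPC-1, against 17.4% of all genes, with a median of −0.44. In PANC-1 11 of 110 were, near the 8.68% of all genes, with a median of −0.09. With RAF inhibitors 17 of 109 were lower in AsPC-1, against 4.91% of all genes. In PANC-1 0 of 110 were by edgeR, against 0.436%, and 11 were lower at an unadjusted p under 0.05. Higher calls were 0 in AsPC-1 in all 3 classes by edgeR, with 0, 1 and 1 at an unadjusted p under 0.05, and 2, 1 and 0 in PANC-1. Between lines, 41 of 110 had a more negative ERK inhibitor effect in AsPC-1 and 14 of 110 a more negative MEK inhibitor effect. Of all genes 7.49% and 6.08% did.

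Among them, POLR1G, a subunit of RNA polymerase I listed in the file as CD3EAP, was lower by −1.13 ± 0.10 with MEK and −1.48 ± 0.11 with ERK inhibitors in AsPC-1, and by −0.20 ± 0.07 and −0.25 ± 0.07 in PANC-1. It differed between the lines by −1.23 ± 0.13 for ERK inhibitors (edgeR adjusted p = 2.96e-12). KRR1, a processome factor, was lower in both lines with MEK inhibitors, by −0.92 ± 0.09 in AsPC-1 and −0.62 ± 0.07 in PANC-1. EBNA1BP2 and BRIX1, large subunit factors, were lower by −0.69 ± 0.06 and −0.61 ± 0.08 in AsPC-1, and by −0.39 ± 0.07 and −0.33 ± 0.08 in PANC-1. SNU13, a box C/D core protein, was lower by −0.40 ± 0.06 in AsPC-1 and −0.64 ± 0.05 in PANC-1 with MEK inhibitors.

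The 79 ribosomal proteins, the structural parts of the ribosome, had medians near 0. In AsPC-1 17 were lower and 2 higher with MEK inhibitors, with a median of −0.06, and 22 lower and 3 higher with ERK inhibitors, with a median of −0.09. Of all genes in that line, 16.1% were lower and 12.9% higher with MEK inhibitors, and 17.4% and 13.7% with ERK inhibitors. In PANC-1 7 and 5 of the 79 were lower with MEK and ERK inhibitors, under the 10.6% and 8.68% of all genes. By edgeR 0 were higher there, and at an unadjusted p under 0.05 0 and 1 were. RPL4 was lower by −0.31 ± 0.04 and RPS7 by −0.29 ± 0.05 with MEK inhibitors in AsPC-1, and RPSA was higher by 0.18 ± 0.06. Together the ribosomal proteins made up 11.7% ± 0.589 (SD, n = 12) of counts alone and 11% ± 0.699 (SD, n = 20) with MEK inhibitors in AsPC-1, and 12.8% ± 0.539 (SD, n = 12) and 12.4% ± 0.511 (SD, n = 20) in PANC-1.

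Of 28 tested MYC targets outside the ribosome in AsPC-1, 20 were lower with MEK and 21 with ERK inhibitors, and of 27 tested in PANC-1, 9 and 2 were. Of all genes 16.1% and 17.4% were lower in AsPC-1, and 10.6% and 8.68% in PANC-1. The 2 of 27 with ERK inhibitors in PANC-1 are near that share. NME1, a nucleoside diphosphate kinase, was lower by −0.73 ± 0.07, LDHA (lactate dehydrogenase) by −0.48 ± 0.05 and the chaperonin HSPD1 by −0.46 ± 0.05 with MEK inhibitors in AsPC-1. SRM, spermidine synthase, was lower by −1.20 ± 0.11 with ERK inhibitors and differed between the lines by −1.24 ± 0.13. With ERK inhibitors TFAP4 (2.28 ± 0.52) and IMPDH2 (0.28 ± 0.10) were higher in PANC-1.

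Of the 10 tested genes for partners and antagonists of MYC, none was lower in AsPC-1 by edgeR with MEK or ERK inhibitors, also at an unadjusted p under 0.05. Of all genes 16.1% and 17.4% were lower there at an adjusted p under 0.05. MXD4, which competes with MYC for MAX, was higher in both lines, by 0.89 ± 0.16 and 1.16 ± 0.17 with MEK and ERK inhibitors in AsPC-1 and by 1.24 ± 0.14 and 1.23 ± 0.14 in PANC-1. MXI1, of the same family, was higher by 0.75 ± 0.17 with MEK inhibitors in AsPC-1. In PANC-1 MLX (−0.74 ± 0.11) and MXD1 (−1.10 ± 0.20) were lower and MLXIP (0.56 ± 0.13) higher with MEK inhibitors.

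The autophagy inhibitors alone were compared with 6 libraries each. In AsPC-1 the score of the 40 members ran from 0.01 to 0.23 with hydroxychloroquine and from −0.23 to 0.01 with the Vps34 inhibitor, with a median log2 difference of −0.24 over members (Vps34 inhibitor minus hydroxychloroquine) and 0.01 over all genes. By edgeR 3 members passed, against 5.93% of all genes in either direction. DKC1 ran from 161 to 258 CPM with hydroxychloroquine and from 107 to 176 with the Vps34 inhibitor (−0.67 ± 0.12, edgeR adjusted p = 0.000104). EIF6 differed by −0.27 ± 0.09, and NHP2 was higher with the Vps34 inhibitor by 0.43 ± 0.13. In PANC-1 0 members passed by edgeR, against 2.49% of genes, with 6 lower and 1 higher at an unadjusted p under 0.05.

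The effect of a class was then compared between the 2 partners. In AsPC-1 the score was lower with the Vps34 inhibitor in every class, with medians of −0.67 against −0.45 for MEK, −0.92 against −0.45 for ERK and −0.33 against −0.06 for RAF libraries, and the alone libraries differed the same way. Taken against the alone libraries of the same partner, 0 members differed by edgeR in any class in AsPC-1, where 0.094%, 0.313% and 0% of all genes did. At an unadjusted p under 0.05, 1 member was lower and 2 higher for MEK, 4 lower and 0 higher for ERK, and 0 lower and 1 higher for RAF inhibitors. In PANC-1 0 members and 0% of all genes passed in the 3 classes, and 0 members did at an unadjusted p under 0.05. With hydroxychloroquine as the partner, 23 members were lower with MEK inhibitors in AsPC-1 (9.3% of all genes) and 24 with ERK inhibitors (9.18%). With the Vps34 inhibitor 22 (10.4%) and 31 (13.5%) were.

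MEK and ERK inhibitors were also compared with each other. In AsPC-1 0 members differed by edgeR, against 0.744% of all genes, though 13 had a lower level with ERK inhibitors at an unadjusted p under 0.05 and the median difference was −0.13. In PANC-1 2 members were higher with ERK than with MEK inhibitors, against 2.26% of all genes in either direction. These were EIF6 (0.33 ± 0.05, edgeR adjusted p = 8.6e-05) and NOC2L (0.58 ± 0.14, edgeR adjusted p = 0.0115).

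RAF709 was compared with the other 4 RAF inhibitors together. In AsPC-1 4 members were lower with RAF709, against 2.5% of all genes: RRP9 by −1.12 ± 0.26, TCOF1 by −0.52 ± 0.14, NOP56 by −0.42 ± 0.10 and EIF6 by −0.38 ± 0.08. RRP9 had 8.6 and 9.4 CPM with hydroxychloroquine and 5.1 and 5.1 CPM with the Vps34 inhibitor in the RAF709 libraries. In PANC-1 3 members were lower, against 3.11% of all genes: EIF6 by −0.49 ± 0.09, BOP1 by −0.60 ± 0.19 and FBL by −0.25 ± 0.07. The higher level of MYC in RAF libraries than in MEK or ERK libraries of AsPC-1 was not tested as a comparison of its own.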

How the data were processed

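The authors deposited gene counts for each library, as whole numbers with no normalisation. Per the submitters' processing notes, kallisto 0.44.0 and GRCh38 were used, without the role of either. How transcripts were summed to genes is not given in the sources used here, nor how reads of near-identical genes were shared. Columns were matched to samples by their descriptions.

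For each line edgeR 4.0.16 was fitted to its 68 libraries (robust quasi-likelihood, TMM factors, filterByExpr by treatment group, plate as a block, 37 residual degrees of freedom), and to both lines together for their difference. A class effect weights its drugs and both autophagy inhibitors equally. Fold changes are log2 ± standard error. CPM are counts scaled to a library total of 1000000, and scores add 1 CPM before the log. The number of counts limits the precision of low genes. DESeq2 1.42.0 was an alternative, as were the block, the scaling, the filter, plates, partners and left-out replicates. The fit was tested on simulated data. R 4.3.3 and Python 3.11.15 were used.

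Replicate numbers of the combinations follow the plates. Over 378 pairs of combinations, deviations of libraries on the same plate correlated at a median of 0.0328 for AsPC-1 and 0.0562 for PANC-1. Correlations of libraries within groups were at least 0.918 and no files were identical.

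The members and lists were chosen with earlier results of these data known. Named genes are MYC, the 3 members per role with the smallest adjusted p with MEK inhibitors in AsPC-1, members higher in a class or lower in PANC-1, up to 5 members per direction in differences between lines or classes, and up to 3 genes per direction in other lists. Other named values, among them BOP1, single drugs and the 3 members called higher with single drugs, were chosen after their values were seen. Promoter stretches were taken in order of adjusted p from members with an E-box before the start and outside chromosome 8. Overlaps of these stretches with genes are from GENCODE v29.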

Additional observations from a re-analysis of the deposited data

Results flagged for a closer look

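Among the groups of 6 libraries with an autophagy inhibitor alone, 9 of 160 member-by-group sets held 1 library far from the other 5, where chance gives about 1 in 20. In AsPC-1 with the Vps34 inhibitor, POLR1C reached 179.8 CPM (next library 60.4), DKC1 175.5 CPM (next 130.3) and GNL3 128.5 CPM (next 65.3), while NOC2L was as low as 59.9 CPM (next 71.1) and NCL as low as 413.3 CPM (next 638.5). In PANC-1 with the Vps34 inhibitor, GNL3 reached 317.1 CPM (next 105.9), NOLC1 333.4 CPM (next 236.7) and NOP2 81.4 CPM (next 60.4), and with hydroxychloroquine DKC1 reached 306.7 CPM (next 237.5).

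The difference of the effect between the lines (AsPC-1 minus PANC-1) passed edgeR's quasi-likelihood test for 14 members with MEK, 23 with ERK and 2 with RAF inhibitors, and up to 5 per class with the smallest adjusted p are listed here. With MEK inhibitors it was −0.49 for NOP56, −0.58 for DDX21, −0.58 for MRTO4, −0.64 for NOLC1 and −0.54 for DKC1. With ERK inhibitors it was −0.73 for NOP56, −0.97 for DDX21, −0.86 for DKC1, −0.78 for MRTO4 and −0.71 for NOP14. With RAF inhibitors it was −0.31 for NOP56 and −0.39 for DDX21.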

How the results depend on the processing

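Of the recomputed counts and medians of classes and drug sums, 303 stayed within 1.5 times the reported count or 1 SD of the reported median. The cause of the other 42 changes was not tested, except that a plate or 1 partner holds fewer libraries. Among the remaining recomputed values, 984 were marked as the same, 77 as moved, 16 as weaker and 3 as reversed. Without the replicate block, the plate term, members lower for MEK, ERK and RAF inhibitors were 31, 31 and 10 for AsPC-1, 9, 4 and 1 for PANC-1, and 13, 19 and 2 for the difference between lines, and the sums over drugs were 200, 29 and 60. Plates A and B alone gave 20 and 18 (MEK), 1 and 0 (RAF) in AsPC-1, 5 and 3 (MEK), 0 and 0 (ERK), 0 and 0 (RAF) in PANC-1, and for the difference 1 and 4 (MEK), 8 and 6 (ERK), 0 and 0 (RAF), with an ERK median of −0.63 on plate B. With drugs of a class as replicates the RAF count was 5 in AsPC-1 and 0 for the difference. For RAF in AsPC-1 either partner by itself gave 5 (1.68% of all genes with hydroxychloroquine, 2.48% with the Vps34 inhibitor). The Vps34 inhibitor as the only partner gave 4 (MEK, 6.28% of all genes) and 0 (ERK, 4.67%) in PANC-1. Its ERK median in AsPC-1 was −0.71. For the other settings of this section the shares of all genes are not given here. DESeq2 gave 2 for RAF in PANC-1 and 4 for the RAF difference, as did the difference from separate fits, an alternative added after seeing the data.

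With each replicate left out in turn, members lower ranged from 6 to 12 for RAF in AsPC-1, from 4 to 11 for MEK and from 2 to 6 for ERK inhibitors in PANC-1, and the ERK median in AsPC-1 from −0.73 to −0.56. From separate fits the differences ranged from 7 to 15 (MEK), 14 to 24 (ERK) and 1 to 5 (RAF). Sums over the 14 drugs ranged from 135 to 220 for AsPC-1, 13 to 39 for PANC-1 and 48 to 82 for the difference. These lowest counts came from leaving out plate A or plate B of all combinations. PANC-1 medians of AZD0364 ranged from −0.089 to 0.014 and of ravoxertinib from −0.064 to 0.048, changing sign, the latter also without alone replicate 2 (0.006). Leaving out replicates in the fit of both lines was not run. BOP1 and NOP2 held 0 counts in single AsPC-1 libraries.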
